A study of Homo sapiens with 6 samples.

Results

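A set of 30 genes that build cholesterol and fatty acids, or that sense and carry sterols, was examined in SK-N-AS cells after knockdown of Prp19. The genes were listed by name from the axis of the sterol regulatory element-binding proteins (SREBPs), by a rule that uses none of their values but was written with earlier results of these data known, and all 30 were among the 58735 genes listed in each deposited table. SK-N-AS is an established human neuroblastoma cell line. Prp19, encoded by *PRPF19*, is a pre-mRNA splicing factor. RNA was sequenced from cells transfected with a small interfering RNA against Prp19 (siPrp19, 3 libraries) or with a negative control siRNA (NC, 3 libraries), all taken 72 h after transfection per the labels. The knockdown was transient, all libraries came from 1 cell line, and the study's methods call the replicates biological without saying whether they were separate cultures, so the p-values measure the spread between these libraries.

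The value column of each table names 1 library (NCa, NCb, NCc, siPrp19a, siPrp19b or siPrp19c), and in 4 of the 6 tables this name belongs to another sample than the record that holds the table. For NCb and siPrp19b the name and the record state opposite groups. The main comparison followed the column names, a second used the 4 libraries whose name and record state the same group (NCa, NCc, siPrp19a and siPrp19c), and the last followed the records. *PRPF19* was at 83.0, 83.1 and 93.0 FPKM (fragments per kilobase of exon, scaled to the size of the library) in the columns named NCa, NCb and NCc. It was at 19.6, 19.1 and 18.5 FPKM in those named siPrp19a, siPrp19b and siPrp19c, a log2 fold change of -2.12 ± 0.0744 (SE). Grouped by the records, the log2 fold change of *PRPF19* was -0.74 ± 0.731.

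The libraries held between 14887132 and 19977811 reads. They were not evenly spaced. The reads of NCa and NCb differed with a chi-square of 1.715 per degree of freedom and those of siPrp19b and siPrp19c with 2.594, against 18.05 to 46.65 for the other 13 pairs. In siPrp19a 8.29% of reads fell on the mitochondrial genome, against 5.15% to 5.49% in the other libraries. Of 8 adrenergic neuroblastoma markers 7 reached 1 FPKM (*TH* did not), with a summed level of 315 to 332 FPKM in NC and 242 to 252 FPKM in siPrp19. All 7 mesenchymal neuroblastoma markers did, at 260 to 294 and 213 to 241 FPKM. Of 5 epithelial markers 3 reached 1 FPKM, and the summed level was 46.7 to 63.1 FPKM in NC and 47.4 to 51.3 FPKM in siPrp19. Among leukocyte markers *PTPRC* was at 29.8, 30.7 and 24.9 FPKM in NC and fell to 20.4, 16.9 and 17.0 FPKM in siPrp19 (log2 fold change -0.63 ± 0.111, adjusted p = 0.0202 by limma), while *CD3E* was listed at 0 in all 6 libraries and *CD68* was below 1 FPKM. None of 3 hepatocyte markers reached 1 FPKM. The part of these levels in the results below was not tested.

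Cells make cholesterol from acetyl-CoA through mevalonate, isoprenoid diphosphates and squalene, and make fatty acids from the same acetyl-CoA through malonyl-CoA. SREBPs are transcription factors held in the endoplasmic reticulum with their escort SCAP while sterols are plentiful, because INSIG proteins retain SCAP there. When sterols fall, SCAP carries SREBPs to the Golgi, where they are cut, and the released part enters the nucleus and switches on the genes of both routes. The 30 genes do not hold every known SREBP target, and other targets were not analysed here.

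SREBPs bind short sterol elements, usually beside sites for NF-Y (CCAAT) and Sp1 (GGGCGG). RefSeq promoters on GRCh38.p14, from 250 bases before to 50 bases after the gene start, were matched for 26 of the 30 genes, all but *FDFT1*, *SQLE*, *ACAT2* and *FASN*. The sterol element core TCACNCCAC was searched on both strands and was found in 1 of the 26, *SREBF2*, and in 1.15% of all 27305 promoters. CCAAT was found in 17 of the 26, and in 37.0% of the 9532 promoters of genes tested below. GGGCGG was found in 24 of the 26 and in 71.2% of the tested genes' promoters, and the E-box CACGTG, which SREBPs can also bind, was found in 4 (*INSIG1*, *LSS*, *SC5D* and *SCAP*) and in 10.3%. These matches describe letters and not binding sites. The promoter of *SREBF2* is shown because it holds the sterol element core. Those of *HMGCS1*, *MSMO1*, *INSIG1* and *STARD4* are shown because these genes fell after siPrp19 and hold CCAAT. No CCAAT was found in the windows matched to *IDI1*, *FADS1* and *FADS2*, the other matched genes that fell. The window of *IDI1* (chr10:1056655-1056954) lies outside the span of the gene used here (chr10:1039152-1049170), so its motifs may not describe the start of that gene. Capitals mark CCAAT on either strand (read as ATTGG on the other) and, in *SREBF2*, the core TCACCCCAC, which begins 133 bases before the gene start.
SREBF2 promoter, chr22:41832855-41833154, plus strand: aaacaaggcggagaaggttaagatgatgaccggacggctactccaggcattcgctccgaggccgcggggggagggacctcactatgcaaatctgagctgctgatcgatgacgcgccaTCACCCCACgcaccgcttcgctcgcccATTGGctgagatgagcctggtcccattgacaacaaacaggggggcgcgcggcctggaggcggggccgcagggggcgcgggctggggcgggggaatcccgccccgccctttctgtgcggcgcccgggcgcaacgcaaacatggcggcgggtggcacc
HMGCS1 promoter, chr5:43313363-43313662, minus strand: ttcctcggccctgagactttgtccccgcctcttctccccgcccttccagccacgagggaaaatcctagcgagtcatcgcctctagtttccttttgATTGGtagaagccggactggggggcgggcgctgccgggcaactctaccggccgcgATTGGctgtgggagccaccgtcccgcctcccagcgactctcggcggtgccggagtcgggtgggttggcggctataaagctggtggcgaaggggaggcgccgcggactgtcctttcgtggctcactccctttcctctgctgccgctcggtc
MSMO1 promoter, chr4:165327419-165327718, plus strand: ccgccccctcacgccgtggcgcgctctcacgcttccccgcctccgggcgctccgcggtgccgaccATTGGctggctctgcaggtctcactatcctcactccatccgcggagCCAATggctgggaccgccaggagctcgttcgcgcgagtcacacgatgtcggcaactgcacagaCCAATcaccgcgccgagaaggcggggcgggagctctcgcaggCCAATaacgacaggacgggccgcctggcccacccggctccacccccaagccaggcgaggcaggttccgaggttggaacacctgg
INSIG1 promoter, chr7:155297628-155297927, plus strand: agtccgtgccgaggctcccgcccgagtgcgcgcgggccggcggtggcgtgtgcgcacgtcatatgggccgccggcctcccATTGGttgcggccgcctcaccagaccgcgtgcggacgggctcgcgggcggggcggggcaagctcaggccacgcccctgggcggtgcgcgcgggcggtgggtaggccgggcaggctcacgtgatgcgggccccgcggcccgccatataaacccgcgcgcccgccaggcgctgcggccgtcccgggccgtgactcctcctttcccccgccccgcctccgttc
STARD4 promoter, chr5:111512486-111512785, minus strand: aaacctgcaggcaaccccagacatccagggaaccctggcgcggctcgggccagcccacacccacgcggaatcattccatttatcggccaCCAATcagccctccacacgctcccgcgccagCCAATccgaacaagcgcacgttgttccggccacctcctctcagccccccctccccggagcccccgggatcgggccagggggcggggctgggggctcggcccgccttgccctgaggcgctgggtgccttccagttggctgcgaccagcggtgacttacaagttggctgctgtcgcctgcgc

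After Prp19 knockdown 6 genes of cholesterol synthesis and sterol handling fell, as did both desaturases of polyunsaturated fatty acids, with log2 fold changes from -0.51 to -0.26, whereas *ACLY*, *ACACA* and *FASN*, the enzymes from citrate to palmitate, did not pass. With limma on log2(FPKM + 1) and Benjamini-Hochberg adjustment over 13718 genes, 8 of the 30 genes (26.7%) passed an adjusted p of 0.05, and all 8 fell: *ACAT2*, *HMGCS1*, *IDI1*, *MSMO1*, *INSIG1*, *STARD4*, *FADS1* and *FADS2*. The background was 7.94% of all genes tested, with 5.37% lower and 2.57% higher. None of the 8 changed by more than 1.5-fold. The log2 fold change was below 0 for 26 of the 30, with a median of -0.22, against 54.0% of all genes and a median of -0.02. It was below 0 for 23 genes with quantile normalization or rescaling to the same sum, and for 21 after rescaling outside the mitochondrial genes or with voom. In bulk RNA, fewer expressing cells and less RNA per cell cannot be told apart. For 17 genes every siPrp19 library was below every NC library, which held for 18.1% of all genes, and for 2 genes (*TM7SF2* and *SCAP*) every siPrp19 library was above, which held for 13.2%.

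**Figure D1:**
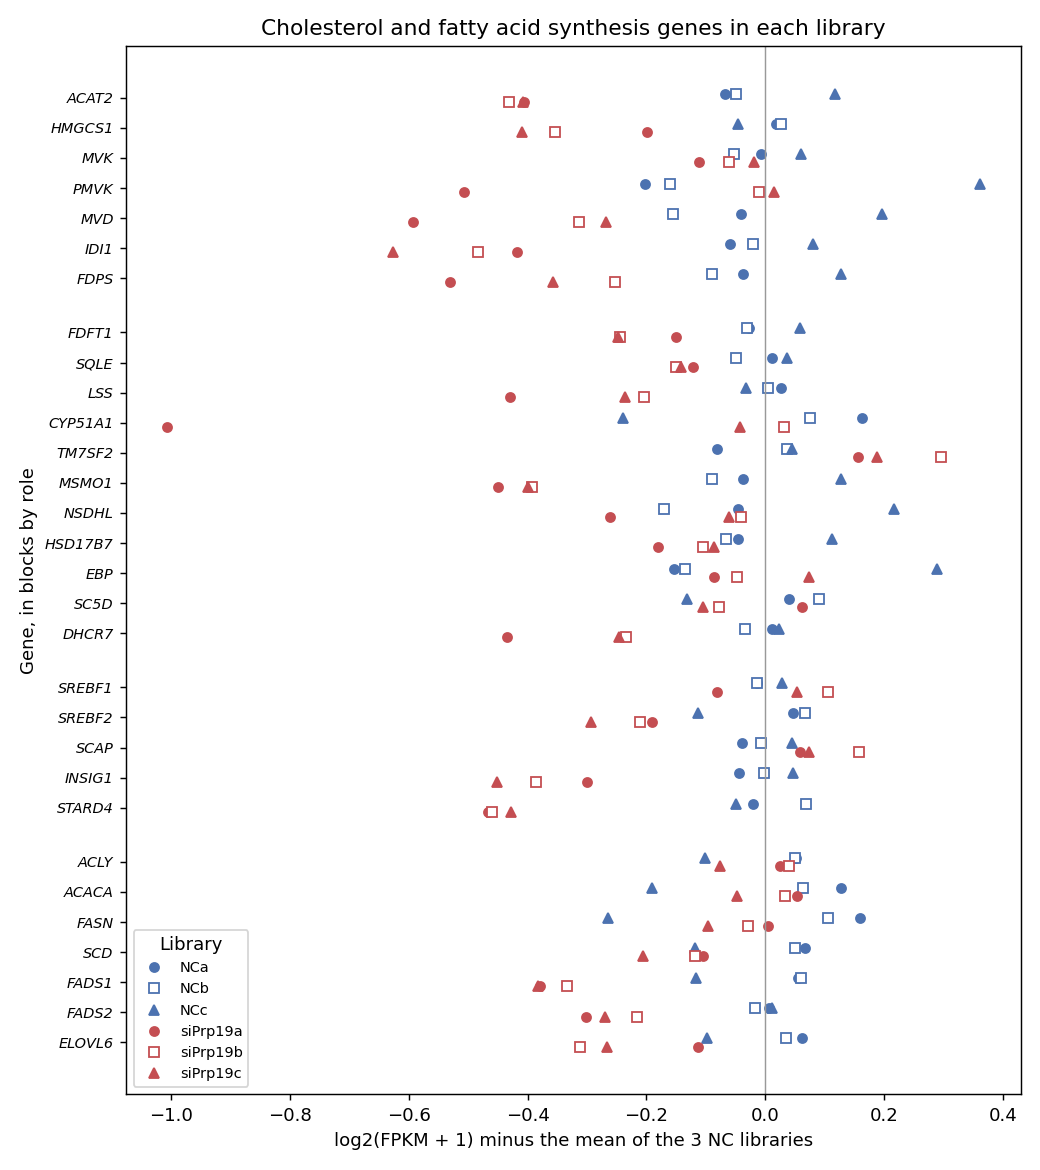
Level of each of the 30 genes in each of the 6 libraries, as log2(FPKM + 1) minus the mean of the 3 NC libraries (horizontal axis), in blocks by role (vertical axis, from the top: mevalonate steps, squalene to cholesterol, sterol sensing and transport, fatty acid synthesis). Blue marks NC and red siPrp19, and open squares are the 2 libraries, NCb and siPrp19b, whose column name and record state opposite groups. In 17 genes all red points lie to the left of all blue ones.

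The number of calls changed with the libraries used, and the cause was not tested. Without NCa, NCb, siPrp19b or siPrp19c, each left out on its own, 0 of the 30 genes passed by limma. Over all 13718 genes, 264, 335, 270 and 253 passed in these fits, against 1089 in the main comparison. An unadjusted p under 0.05 was found for 13 genes without NCa (background 18.2% of all genes), 14 without NCb (18.7%), 13 without siPrp19b (17.7%) and 13 without siPrp19c (18.3%). Averaging each close pair into 1 library also gave 0 passing genes of the 30, and 2 of all genes. Of the 30, 9 had an unadjusted p under 0.05 (background 12.5%), and the median log2 fold change was -0.21. Without NCc 8 of the 30 passed, with *SREBF2* in place of *HMGCS1* (1354 of all genes). Without siPrp19a 6 of the 30 passed (1033 of all genes). The share of higher genes among all calls was 32.4% and rose to 46.1% with quantile normalization, 58.5% after rescaling outside the mitochondrial genes and 55.1% with voom on the recovered reads. Under these the median log2 fold change of the 30 genes was -0.15, -0.12 and -0.15, and that of all genes 0.01, 0.07 and 0.06. Of 16 alternatives, *IDI1* passed in 10, *ACAT2*, *MSMO1* and *INSIG1* in 9 each, *STARD4* in 8, *FADS1* in 4, *FADS2* in 2 and *HMGCS1* in 1.

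Among the 7 mevalonate genes, 3 fell (42.9%, against 5.37% lower among all genes). All 7 had log2 fold changes below 0 and the median was -0.38. However, *MVK* was above 0 after rescaling outside the mitochondrial genes and with voom, and *PMVK* without NCc or siPrp19a. *IDI1* (chr10:1039152-1049170, minus strand), which isomerises isopentenyl diphosphate, had the most negative log2 fold change of the 30 genes. Its level was 19.96, 20.5 and 22.1 FPKM in NCa, NCb and NCc, and 15.4, 14.6 and 13.2 FPKM in siPrp19a, siPrp19b and siPrp19c. The groups did not overlap, and the mean fell by 31.1%, from 20.9 ± 1.11 to 14.4 ± 1.12 FPKM (SD, n = 3 each), with a log2 fold change of -0.51 ± 0.0800 (SE) and a limma adjusted p of 0.0142. *ACAT2* (chr6:159760328-159779055, plus strand) encodes the cytosolic thiolase that joins acetyl-CoA units at the start of the route. It was at 6.74, 6.85 and 7.80 FPKM in NC and at 5.12, 5.02 and 5.12 FPKM in siPrp19, in the same library order. The siPrp19 libraries were nearly equal and all below NC (log2 fold change -0.42 ± 0.0739, adjusted p = 0.0205 by limma). *ACAT2* overlaps *TCP1* and *SOD2* on the opposite strand, and since the strandedness of the libraries was not given in the sources used here, reads of the overlap cannot be told apart. The same limit holds for *IDI1*, *HMGCS1* and *STARD4*, which also overlap genes on the opposite strand (*IDI2-AS1* for *IDI1* and *STARD4-AS1* for *STARD4*).

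*HMGCS1* (chr5:43289395-43313512, minus strand) encodes the synthase of the next step, which makes HMG-CoA. Its level was 13.0, 13.1 and 12.4 FPKM in NC and 11.1, 9.83 and 9.43 FPKM in siPrp19. No siPrp19 library reached an NC library, and the log2 fold change of -0.32 ± 0.0761 had a limma adjusted p of 0.04996, just under the threshold. *FDPS*, which makes farnesyl diphosphate, and *MVD*, which decarboxylates mevalonate diphosphate, also had groups that did not overlap but did not pass. *FDPS* was at 33.5, 32.2 and 37.6 FPKM in NC and 23.5, 28.7 and 26.6 FPKM in siPrp19 (log2 fold change -0.38 ± 0.0978, adjusted p = 0.0629 by limma). *MVD* was at 4.46, 4.04 and 5.44 FPKM in NC and 2.72, 3.52 and 3.67 FPKM in siPrp19 (log2 fold change -0.39 ± 0.127, adjusted p = 0.117 by limma). In both genes siPrp19a held the lowest level of the 6 libraries and NCc the highest.

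The kinases of the route did not pass. *MVK*, which phosphorylates mevalonate, had overlapping groups and a log2 fold change of -0.06 (95% confidence interval -0.22 to 0.10). *PMVK*, the next kinase, was at 24.7, 25.4 and 36.9 FPKM in NC and 19.8, 28.3 and 28.8 FPKM in siPrp19. The spread of *PMVK* within each group (SD 6.87 and 5.08 FPKM) exceeded the difference of the means, 29.01 against 25.6 FPKM. The 95% confidence interval of its log2 fold change of -0.17 was -0.63 to 0.30, which holds the median of the mevalonate genes (-0.38).

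From squalene to cholesterol, 1 of 11 genes fell. This share of 9.09% was near those of all genes, 5.37% lower and 7.94% called in either direction. Of the 11, 10 had log2 fold changes below 0 and the median was -0.14, with *EBP* and *SC5D* above 0 under some scalings. *MSMO1* (chr4:165327623-165343160, plus strand), the methyl sterol monooxygenase that takes part in removal of methyl groups from the sterol ring, was the gene that fell. It was at 35.4, 34.0 and 39.7 FPKM in NC and at 26.3, 27.4 and 27.3 FPKM in siPrp19. The groups were well apart and the siPrp19 libraries nearly equal (SD 0.603 FPKM), and the log2 fold change was -0.41 ± 0.0775 with a limma adjusted p of 0.0236. *NSDHL* and *HSD17B7*, whose enzymes act with *MSMO1* in the same demethylation, had log2 fold changes of -0.12 each, neither past the threshold. Reads of *HSD17B7* may be shared with its pseudogenes, of which the most abundant had a mean of 1.45 FPKM, so its value is uncertain.

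*DHCR7*, a terminal reductase of cholesterol synthesis, was at 22.8, 22.1 and 23.0 FPKM in NC and at 16.5, 19.1 and 18.9 FPKM in siPrp19. *LSS*, which closes the sterol rings to give lanosterol, was at 20.8, 20.5 and 19.95 FPKM in NC and at 14.9, 17.6 and 17.2 FPKM in siPrp19. Both genes had tight NC libraries and their lowest level in siPrp19a, and neither passed (*DHCR7* log2 fold change -0.30 ± 0.0762 and adjusted p = 0.0578 by limma, *LSS* -0.29 ± 0.0789 and 0.0739). *FDFT1*, the squalene synthase, and *SQLE*, the squalene epoxidase, had smaller differences, with means of 37.3 against 32.0 FPKM and 24.5 against 22.2 FPKM. The groups did not overlap in either gene, and the log2 fold changes of -0.21 ± 0.0671 and -0.14 ± 0.0609 did not pass (adjusted p = 0.107 and 0.231 by limma).

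*CYP51A1*, the lanosterol demethylase, had a log2 fold change of -0.34 that came from 1 library. It was at 3.28, 3.03 and 2.24 FPKM in NC, and at 0.901 FPKM in siPrp19a (51 reads) against 2.91 and 2.71 FPKM in siPrp19b and siPrp19c. Without siPrp19a its adjusted p was 0.989 by limma. *TM7SF2*, a sterol reductase that acts after demethylation, was on the other side of 0 with 8.86, 9.69 and 9.76 FPKM in NC and 10.6, 11.8 and 10.9 FPKM in siPrp19. All siPrp19 libraries were above all NC libraries, but the log2 fold change of 0.21 ± 0.0720 did not pass (adjusted p = 0.127 by limma). *EBP*, a sterol isomerase, and *SC5D*, a sterol desaturase, had overlapping groups, with log2 fold changes of -0.02 (95% confidence interval -0.32 to 0.28) and -0.04 (-0.25 to 0.17).

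Of the 5 genes that sense or carry sterols, 2 fell (40%, against 5.37% lower among all genes). *STARD4* (chr5:111496033-111512590, minus strand), a cytosolic sterol carrier, had the smallest p-value of the 30 genes. It was at 10.4, 11.1 and 10.2 FPKM in NC and at 7.36, 7.41 and 7.59 FPKM in siPrp19. The siPrp19 libraries had an SD of 0.121 FPKM, and the mean fell by 29.5% (log2 fold change -0.45 ± 0.0637, adjusted p = 0.0104 by limma). *INSIG1* (chr7:155297776-155310235, plus strand), which retains SCAP in the endoplasmic reticulum and is itself switched on by SREBPs, was at 10.5, 10.8 and 11.2 FPKM in NC and at 8.60, 8.05 and 7.65 FPKM in siPrp19. Its groups did not overlap (log2 fold change -0.38 ± 0.0688, adjusted p = 0.0215 by limma).

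Neither gene of the transcription factors themselves passed. *SREBF2*, whose product acts mainly on cholesterol genes, was at 18.6, 18.9 and 16.6 FPKM in NC and at 15.7, 15.4 and 14.5 FPKM in siPrp19. Every siPrp19 library was below every NC library (log2 fold change -0.23 ± 0.0752, adjusted p = 0.117 by limma). *SREBF1*, whose product acts mainly on fatty acid genes, was at 5.21, 5.21 and 5.39 FPKM in NC and at 4.93, 5.75 and 5.50 FPKM in siPrp19, a log2 fold change of 0.03 (95% confidence interval -0.15 to 0.20) that turned to -0.02 in the 4 libraries with agreeing name and record. *SCAP*, the escort, had a log2 fold change of 0.10 (-0.05 to 0.25). These are transcript levels, and the cut and nuclear forms of SREBPs were not measured.

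Of the 7 fatty acid genes, 2 fell (28.6%, against 5.37% lower among all genes), and these were the desaturases of polyunsaturated fatty acids. *FADS1* (chr11:61799625-61829318, minus strand) was at 26.6, 26.7 and 23.5 FPKM in NC and at 19.4, 20.04 and 19.3 FPKM in siPrp19. *FADS2* (chr11:61792980-61867354, plus strand) was at 29.9, 29.4 and 30.1 FPKM in NC and at 24.0, 25.5 and 24.6 FPKM in siPrp19. Neither gene had overlapping groups, and the log2 fold changes were -0.37 ± 0.0731 for *FADS1* and -0.26 ± 0.0612 for *FADS2* (adjusted p = 0.0291 and 0.0476 by limma). These neighbours overlap on opposite strands, so reads of the overlap cannot be told apart and the genes are not independent of each other. *ELOVL6*, which lengthens palmitate, was at 11.1, 10.9 and 9.86 FPKM in NC and at 9.75, 8.36 and 8.67 FPKM in siPrp19, and its log2 fold change of -0.23 ± 0.0819 did not pass (adjusted p = 0.146 by limma).

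The enzymes from citrate to palmitate had log2 fold changes near 0. *ACLY*, which makes cytosolic acetyl-CoA from citrate, had means of 89.9 ± 5.47 FPKM in NC and 89.6 ± 3.90 FPKM in siPrp19 (SD, n = 3 each), and the 95% confidence interval of its log2 fold change was -0.19 to 0.19. *ACACA*, which makes malonyl-CoA, had means of 7.72 ± 0.989 and 7.76 ± 0.322 FPKM (-0.21 to 0.24). *FASN*, the fatty acid synthase, was at 72.2, 69.5 and 53.6 FPKM in NC and at 64.8, 63.3 and 60.3 FPKM in siPrp19, so that the lowest and the highest library were both NC (-0.32 to 0.24). *SCD*, which puts a double bond into saturated fatty acids, had means of 51.8 ± 3.68 and 46.8 ± 1.79 FPKM (-0.33 to 0.04). These intervals do not show that the levels were equal, and a change of the size seen for *FADS2* lies within those of *FASN* and *SCD*.

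**Figure D2:**
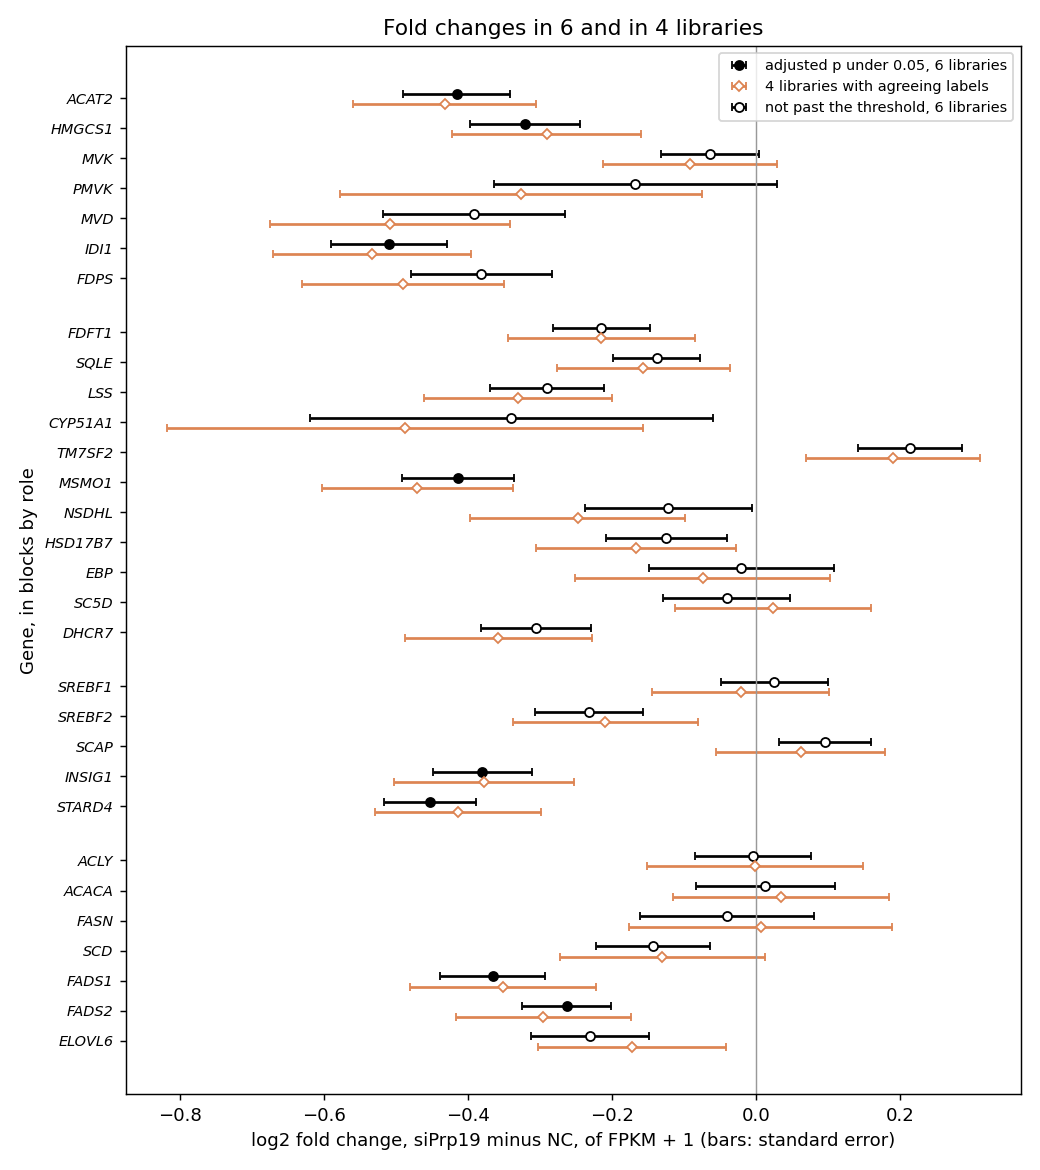
Log2 fold change of FPKM + 1, siPrp19 minus NC (horizontal axis, bars are standard errors), for each of the 30 genes in blocks by role. Filled black circles passed an adjusted p of 0.05 by limma in 6 libraries, open circles did not, and orange diamonds are the 4 libraries whose column name and record state the same group. In 4 libraries 25 of the 30 values lie below 0 and none passed.

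The 4 libraries with agreeing name and record gave similar sizes and no calls. By limma 0 of the 30 genes passed an adjusted p of 0.05 (background 0.0146%, 2 of 13718 genes), and 10 had an unadjusted p under 0.05, all lower in siPrp19 (background 7.86% lower). The median log2 fold change of the 30 genes was -0.23. For the 8 genes above it ranged from -0.53 ± 0.138 for *IDI1* to -0.29 ± 0.131 for *HMGCS1*, with adjusted p from 0.218 to 0.445. Because these libraries are a subset of the 6, they give no separate support. Grouped by the records, 0 of the 30 genes passed (background 0%), 0 had an unadjusted p under 0.05, against 191 of all genes, and the median was -0.09.

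The library with the most mitochondrial reads, siPrp19a, held the lowest level for 13 of the 30 genes, and siPrp19c for 7. The median over the 30 genes, relative to the NC mean, was -0.19 in siPrp19a, -0.18 in siPrp19b and -0.22 in siPrp19c on the log2 scale, and -0.01, -0.01 and 0.03 in NCa, NCb and NCc. All siPrp19 libraries were thus below all NC libraries in this median. For all tested genes it was between -0.02 and 0.01 in the 6 libraries. NCc held the highest level for 15 of the 30 genes, yet it had the lowest NC median for the fatty acid genes (-0.12) and the highest for the mevalonate genes (0.12).

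The other lists held genes of the routes around these 30. Of 19 further sterol and fatty acid genes, 3 fell (15.8%, against 5.37% lower among all genes), with a list median of -0.03. *ACSL3*, which activates long-chain fatty acids and is found on lipid droplets, was at 19.2, 18.1 and 16.8 FPKM in NC and at 9.92, 8.85 and 9.12 FPKM in siPrp19, with means of 18.0 ± 1.23 and 9.30 ± 0.561 FPKM (SD, n = 3 each, log2 fold change -0.89 ± 0.0776, adjusted p = 0.00254 by limma). *ME1*, a malic enzyme that supplies NADPH, and *ACSL4*, the ligase of arachidonate, had log2 fold changes of -0.65 ± 0.0824 and -0.44 ± 0.103 (adjusted p = 0.00812 and 0.0490 by limma). *ACSL3*, *ME1* and *ACSL4* overlap genes on the opposite strand, so reads of the overlap cannot be told apart. Of the 16 alternatives, *ACSL3* and *ME1* passed in 14 each and *ACSL4* in 3, and none of the calls in these further lists passed in the 4 libraries with agreeing name and record (adjusted p from 0.107 to 0.419). *INSIG2*, the relative of *INSIG1*, was at 6.72, 6.64 and 7.09 FPKM in NC and 4.34, 5.52 and 5.76 FPKM in siPrp19 and did not pass (log2 fold change -0.34 ± 0.101, adjusted p = 0.0932 by limma).

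Of 12 genes that carry isoprenoids from mevalonate into prenylated proteins, ubiquinone and dolichol, 1 fell and 1 rose, against 5.37% lower and 2.57% higher among all genes. *NUS1*, a subunit of the prenyltransferase that builds the dolichol chain, was at 12.2, 13.3 and 12.2 FPKM in NC and at 8.16, 6.82 and 7.35 FPKM in siPrp19 (log2 fold change -0.69 ± 0.0809, adjusted p = 0.00626 by limma). *DOLK*, the dolichol kinase, was at 8.22, 8.05 and 8.40 FPKM in NC and at 11.4, 10.5 and 11.0 FPKM in siPrp19 (0.38 ± 0.0631, adjusted p = 0.0171 by limma). They passed in 14 and 10 of the 16 alternatives, and *DHDDS*, the partner of *NUS1* in the prenyltransferase, did not pass (log2 fold change 0.11). *DOLK* overlaps a gene on the opposite strand, so reads of the overlap cannot be told apart. *COQ2* and *RABGGTA*, of ubiquinone synthesis and Rab prenylation, had log2 fold changes of -0.29 ± 0.111 and 0.16 ± 0.0797 and did not pass. The list median was 0.04.

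Genes of sterol efflux, storage and lysosomal release had a median of 0.04, with 1 of 10 tested past the threshold, a share of 10.0% near the 7.94% of all genes (of 11 listed, *ABCG1* was below the filter). *LIPA*, the lysosomal acid lipase that frees cholesterol from its esters, rose from 18.8, 18.3 and 18.0 FPKM in NC to 25.6, 24.4 and 22.7 FPKM in siPrp19 (log2 fold change 0.38 ± 0.0697, adjusted p = 0.0220 by limma), and passed in 10 of the 16 alternatives. The span of *LIPA* overlaps 6 genes on the opposite strand, among them *IFIT1*, *IFIT2* and *IFIT3*, so reads of the overlap cannot be told apart. *NR1H3*, a sterol-sensing nuclear receptor, *NPC1*, which exports cholesterol from lysosomes, and *SOAT1*, which esterifies it, had log2 fold changes of 0.19, 0.17 and -0.16 and did not pass.

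None of 15 fatty acid oxidation genes passed by limma, with 4 at an unadjusted p under 0.05 (background 23.6%) and a median of 0.03. After rescaling outside the mitochondrial genes 4 of the 15 passed, all higher (background 3.97% higher), and the list median was 0.14 against 0.07 for all genes. *CPT1A*, which starts the entry of fatty acids into mitochondria, was at 12.3, 12.0 and 12.8 FPKM in NC and at 14.5, 14.9 and 14.9 FPKM in siPrp19 (log2 fold change 0.23 ± 0.0608, adjusted p = 0.0649 by limma). *SLC25A20*, the carnitine carrier, and *HADHA* and *HADHB*, the subunits of the trifunctional protein of beta oxidation, had log2 fold changes of 0.35, 0.21 and 0.18. These 4 genes were the ones that passed after that rescaling, and *CPT1A* and *HADHA* also passed with voom (adjusted p = 0.0284 and 0.0391). *HADHA* and *HADHB* overlap on opposite strands, so reads of the overlap cannot be told apart and these genes are not independent of each other. Of 15 genes of triglyceride and phospholipid assembly 10 were tested and none passed by limma or had an unadjusted p under 0.05 (0 genes), with *CHKA*, *PLIN3*, *DGAT1* and *GPAM* between -0.15 and 0.17 and a list median of 0.02.

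**Figure D3:**
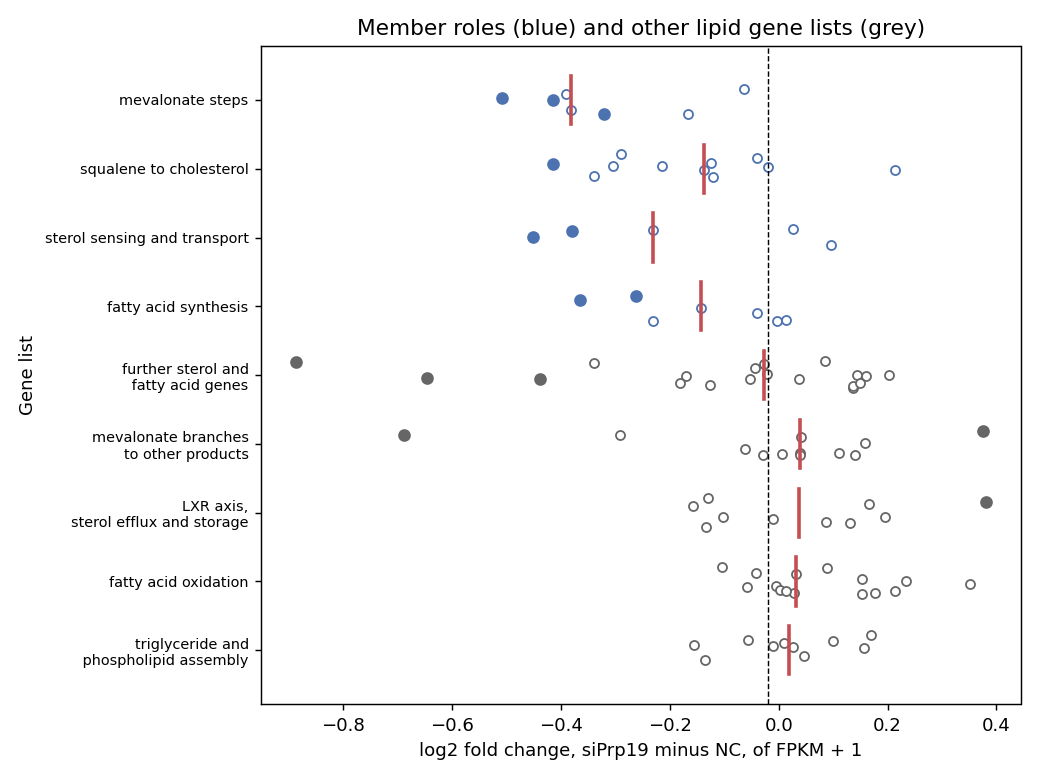
Log2 fold change of FPKM + 1, siPrp19 minus NC, in 6 libraries (horizontal axis) for the 30 genes in 4 roles (blue) and for the tested genes of 5 other lipid lists (grey). Filled points passed an adjusted p of 0.05 by limma, red bars are list medians and the dashed line is the median of all 13718 genes at -0.02. The medians of the 4 roles lie between -0.38 and -0.14, and those of the other lists between -0.03 and 0.04.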

How the data were processed

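RNA was taken 72 h after transfection per the labels, whereas the study's methods give a shorter time, and libraries were made with the NEBNext Ultra kit. The authors deposited 1 FPKM value per gene and library. The submitters' processing notes name hg38, HISAT2 2.0.5 and featureCounts 1.5.0-p3. The annotation and strandedness were not given in the sources used here. Symbols, coordinates and merged exon lengths came from GENCODE 29 (GRCh38) and a table of current symbols, which named 58207 of the 58735 identifiers. FPKM times exon length was a whole multiple of 1 constant, within 0.1 read, for 100% of values above 0, and reads and depth were recovered from it. These were used for voom, depth and the chi-square between libraries.

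The 13718 genes whose FPKM averaged 1 or more over the libraries were kept. Models were fitted to log2(FPKM + 1), on which fold changes of low genes are understated, with limma 3.58.1 in R 4.3.3, moderated tests with a mean-variance trend, two-sided, and Benjamini-Hochberg adjustment (threshold 0.05). The fits were tested on simulated, separately drawn libraries with 200 genes changed 3-fold. With 6 libraries 186 of these were recovered among 200 calls, of which 14 were false. With 4 libraries 186 were recovered among 207 calls, of which 21 were false. Changes as small as those of the 30 genes, and libraries as close as some here, were not simulated. Python 3.11.15 with pandas 2.3.3, numpy 2.4.6 and matplotlib 3.10.9 was used. All 30 genes and *PRPF19* were named, and of 5 other lists the called genes and up to 4 with the largest change. The genes and lists were chosen with earlier results of these data known. The alternatives were another pseudocount, no filter, quantile normalization, rescaling to the same sum with or without the mitochondrial genome, no trend, the replicate number as a block, voom, the 4 libraries, each library left out, and a fold criterion of 1.5. Averaging the close pairs was added after the data were seen. The 16 alternatives counted for single genes include this averaging and leave out the fold criterion and the grouping by records. Group sums of markers were taken over their listed genes. The result of 1 further marker is not reported here. The authors' own comparison of counts was not used here.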

Additional observations from a re-analysis of the deposited data

How the results depend on the processing

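Grouped by the column names, the log2 fold change kept its sign under every alternative in 22 of the 30 genes. Of the 8 calls, 3 were left without a filter (512 of all genes called), 5 with quantile normalization, 4 after rescaling to the same sum (679 of all genes), 3 after rescaling outside the mitochondrial genes, 5 with voom, 0 in the 4 libraries and with close pairs averaged (2 of all genes in each), and 0 with a fold change above 1.5. Leaving out 1 library gave 0 to 8 calls, 253 to 1354 calls over all genes and medians of -0.23 to -0.19. The median of the 30 genes was -0.15 with quantile normalization, -0.18 after rescaling to the same sum, -0.12 outside the mitochondrial genes and -0.15 with voom, and it stayed between 0.16 and 0.23 below that of all genes under every alternative that grouped by column names. Grouped by the records the medians were -0.09 and -0.01. Grouping by the column names in place of the records gave 8 calls in place of 0. The cause of these differences was not tested.

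With the replicate block 6 of the 30 genes and 928 of all genes were called. Deviations of libraries with the same letter correlated at 0.1336, -0.04901 and 0.2041, and NCb correlated best with siPrp19a, so the letters were not taken to pair the libraries. With a block of the records' numbers 0 were called.

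The log2 fold change changed sign for *EBP*, *ACLY* and *FASN* with quantile normalization (0.0446, 0.136 and 0.112) and after rescaling to the same sum (0.0201, 0.0385 and 0.0021). Outside the mitochondrial genes it did so for *MVK*, *EBP*, *SC5D*, *ACLY* and *FASN* (0.0282, 0.0801, 0.0492, 0.104 and 0.0671) and with voom for the same genes (0.0039, 0.0560, 0.0323, 0.0744 and 0.0372). In the 4 libraries it did so for *SC5D*, *SREBF1* and *FASN* (0.0241, -0.0209 and 0.0069), and with close pairs averaged for *SC5D*, *SREBF1*, *ACLY* and *FASN* (0.0184, -0.0078, 0.0287 and 0.0374). Leaving out 1 library gave -0.0549 to 0.0321 for *ACLY*, -0.17 to 0.0397 for *FASN*, -0.11 to 0.0054 for *SC5D*, -0.27 to 0.0134 for *PMVK*, -0.0964 to 0.124 for *EBP*, -0.0823 to 0.0772 for *ACACA* and -0.0141 to 0.0796 for *SREBF1*. None of these genes was called.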
